A study of Homo sapiens with 5 samples.

Results

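The genes described here make NAD, turn it into NADP, keep NADP reduced in mitochondria, or carry NAD into them. Their messenger RNA was compared between wild-type HEK293 cells and the same line carrying rs11607019, a T-to-C variant placed in SIRT3 by the series. The set was chosen by gene function and holds 10 genes: NAMPT, NAPRT, NADSYN1, NMNAT1, NMNAT3, NMRK1, NADK, NADK2, NNT and SLC25A51. Of these, 9 were among the 16677 gene identifiers of the count table and all 9 passed the filter on low counts. NMNAT3 was not among the identifiers, so its expression is not analysed here.

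HEK293 is an established human embryonic kidney cell line. The labels give 2 wild-type libraries (control 1 and control 2) and 3 libraries with the variant (variant 1, variant 2 and variant 3), all from untreated cells in basal culture. Whether the variant libraries come from 1 edited clone or several is not given in the sources used here, and p-values measure only the spread between these libraries, which may be technical. SIRT3, in which the series places the variant, is a deacetylase of the mitochondrial matrix that consumes NAD.

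NAD is made in human cells by several routes that all pass through an adenylylation step. In the salvage route NAMPT joins nicotinamide to a ribose phosphate to give nicotinamide mononucleotide. NMRK1 reaches the same product from nicotinamide riboside, and NAPRT starts a parallel route from nicotinic acid that NADSYN1 ends by amidation. NMNAT enzymes add the adenylyl group. NAD kinases phosphorylate NAD to NADP, in the cytosol (NADK) and in mitochondria (NADK2). NNT, a transhydrogenase of the inner mitochondrial membrane, uses the proton gradient to reduce NADP with electrons from NADH, and the NADPH so formed serves glutathione and thioredoxin reduction. SLC25A51 is the carrier that brings NAD into the matrix.

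Library totals ran from 17122569 to 17596084 counts, and no gene had fewer than 3 counts in a library. Of the 9 genes commonly seen in HEK293 that were listed, 5 were in the table. VIM stood at 328 to 618 CPM and KRT8 at 226 to 371 CPM (CPM, the count scaled to the library total after TMM normalisation). KRT18 had 45.51 to 95.06 CPM, PAX2 had 9.939 to 21.97 CPM and LHX1 had 9.534 to 21.06 CPM. NEFL, NEFM, INA and EYA1 were not among the identifiers. None of 5 blood genes and none of 6 squamous, kidney tubule and liver genes were among the identifiers, while 2 of 8 fibroblast and endothelial genes were, COL1A1 at 28.4 to 46.3 CPM and COL3A1 at 1.26 to 2.65 CPM. SIRT3 itself stood at 28.9 and 29.3 CPM in the controls, against 26.5, 15.8 and 30.2 CPM with the variant. The fitted log2 fold change of SIRT3 was −0.27 (SE 0.26; adjusted p = 0.815 by edgeR's quasi-likelihood test), −0.04 without variant 2 and −0.46 without variant 3.

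A pair of sequences bears on what the counts can say, since reads of 50 bases were counted. NAMPT has a processed pseudogene, NAMPTP1, on chromosome 10, and SLC25A51 has a close relative, SLC25A52, on chromosome 18. Of the 50-base windows in the NAMPT coding sequence, 62.7% occurred letter for letter in NAMPTP1, and the longest shared run was 269 bases. For SLC25A51 and SLC25A52 the share was 35.7% and the longest run 169 bases. The first 100 bases of each run that lie in its main exon are shown because a read from them fits both genes (GENCODE release 29 transcripts, GRCh38, reverse strand, chr7:106269213-106269312 in exon 5 of NAMPT and chr9:37887736-37887835 in exon 3 of SLC25A51, both coding).
NAMPT and NAMPTP1: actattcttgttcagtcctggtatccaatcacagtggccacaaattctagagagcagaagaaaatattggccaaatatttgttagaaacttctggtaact
SLC25A51 and SLC25A52: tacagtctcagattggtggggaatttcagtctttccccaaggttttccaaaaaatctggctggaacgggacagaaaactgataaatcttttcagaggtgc
How the authors' counting treated reads that fit more than 1 place is not given in the sources used here. SLC25A52 was not among the identifiers, and NAMPTP1 was.

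None of the 9 measured genes passed the threshold between the groups. By edgeR's quasi-likelihood test 0 of 9 had an adjusted p under 0.05, beside 0% of the 16310 tested genes (0 genes). At an unadjusted p under 0.05 the count was also 0 of 9, beside 7.62% of the tested genes (1243 genes, 4.11% higher and 3.51% lower in the variant). DESeq2's Wald test and limma-voom also gave 0 of 9 at either threshold. Over all genes they called 32 and 0 at an adjusted p under 0.05, and 1207 and 1172 at an unadjusted p under 0.05. Of the 9, 7 had higher and 2 had lower fitted values with the variant, with a median log2 fold change of 0.15, where all tested genes had a median of 0.00. NADK2 was the only 1 of the 9 whose groups did not overlap, beside 24.8% of all tested genes (11.8% higher and 13% lower in the variant). The median of the 9 was 0.02 without control 1 and 0.05 without variant 2.

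**Figure D1:**
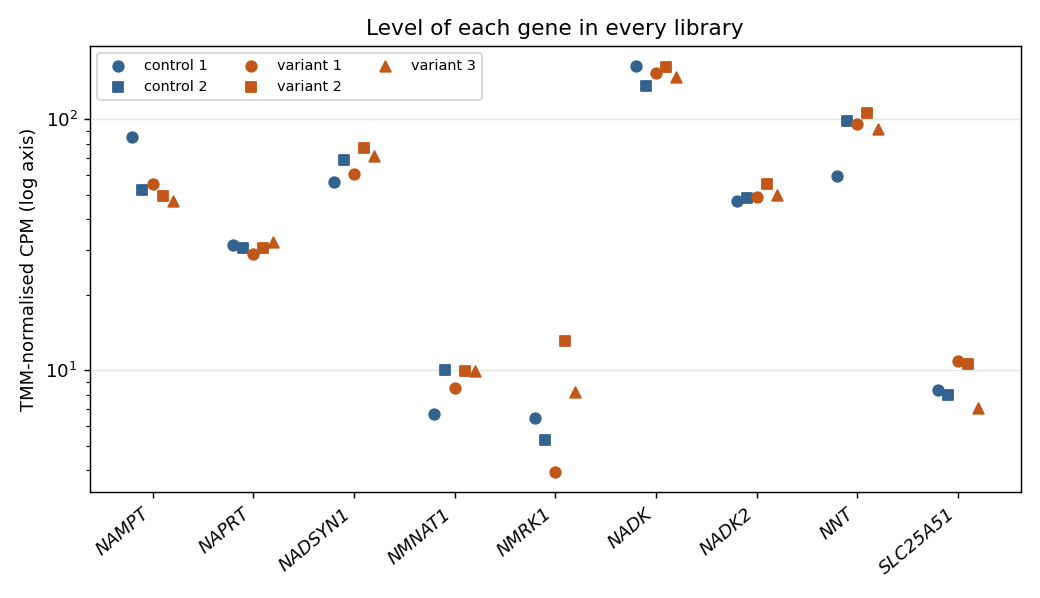
Level of each gene in every library, as TMM-normalised CPM on a log axis, with control libraries in blue and variant libraries in orange; each point is 1 library. NAMPT was highest and NNT lowest in control 1, while for NAPRT, NADK and NADK2 the 5 values of each gene lay close to one another.

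Levels differed between the genes far more than between the groups. NADK was the most abundant per kilobase of its longest coding transcript, at 41.6 ± 3.01 CPM per kilobase (SD over 5 libraries), higher than 88% of tested genes. NADSYN1 followed at 24.04 ± 2.97 CPM per kilobase (SD, 5 libraries). The 5-library ranges of both genes lay apart from that of the next gene in the order.

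Below them came NAPRT at 15.7, NNT at 13.9, NADK2 at 13.8 and NAMPT at 12.6 CPM per kilobase, means over 5 libraries whose ranges overlapped from each gene to the next. SLC25A51, NMRK1 and NMNAT1 were the least abundant per kilobase, at 5.31, 3.60 and 2.38 CPM per kilobase, and their ranges also overlapped from each to the next. The median tested gene had 6.73 CPM per kilobase. The order depends on the length used. Per kilobase of all annotated exonic bases together NADK still led at 27.3, but NADSYN1, whose annotation holds 16263 exonic bases against 2773 in its longest coding transcript, had 4.10 CPM per kilobase.

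The salvage enzymes came first in the comparison of groups. NAMPT (ENSG00000105835, chromosome 7, 106248285 to 106286326, reverse strand), the rate-limiting enzyme of salvage from nicotinamide, had 84.6 CPM in control 1 and 52.3 CPM in control 2. The variant libraries had 55.1, 49.3 and 47.4 CPM. Control 1 alone was high, and control 2 lay inside the range of the variant libraries, so the groups overlapped. The means were 68.5 ± 22.9 CPM (SD, n = 2) and 50.6 ± 3.98 CPM (SD, n = 3).

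The log2 fold change of NAMPT was −0.44 (SE 0.21, 95% interval −0.91 to 0.04), the lowest among the 9 genes (edgeR's quasi-likelihood test, adjusted p = 0.659). It was −0.05 without control 1 and −0.74 without control 2. NAMPT transcripts have 36.3% GC. In control 1 the fitted deviation for a gene of the GC content and length of NAMPT was 0.31 on the log2 scale. NAMPT itself deviated there by 0.58 from the 5-library mean. With the fitted deviations taken out of every library the log2 fold change was −0.19. The fit took GC content and length together, and the part of either in the difference was not tested.

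The pseudogene NAMPTP1 stood at 14.2 and 9.92 CPM in the controls, against 11.6, 8.04 and 8.13 CPM with the variant. Its highest value, like that of NAMPT, was in control 1 and the next in variant 1. With its counts added to those of NAMPT the log2 fold change of NAMPT was −0.43.

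NMRK1 (ENSG00000106733, chromosome 9, 75060573 to 75088217, reverse strand), the nicotinamide riboside kinase, varied most of all 9. It had 6.47 and 5.25 CPM in control 1 and control 2, and 3.93, 13.1 and 8.19 CPM in variant 1, variant 2 and variant 3. The lowest and the highest library thus both carried the variant, 3.33-fold apart. The counts behind these values ran from 68 in variant 1 to 228 in variant 2. Over the 5 libraries the coefficient of variation was 48.1%, where counting error alone gives 8.81%.

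The group means of NMRK1 were 5.86 ± 0.865 CPM (SD, n = 2) and 8.40 ± 4.58 CPM (SD, n = 3), and its log2 fold change was 0.52 (SE 0.44, 95% interval −0.46 to 1.5; edgeR's quasi-likelihood test, adjusted p = 0.778). The variant libraries differed more from each other than the groups did. Without variant 2 it was 0.05 and without variant 1 it was 0.86.

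Chromosome 9, which carries NMRK1, stood higher as a whole in some variant libraries. The median deviation of its genes from their 5-library means was −0.21 and −0.19 in the control libraries, −0.06 in variant 1, 0.28 in variant 2 and 0.22 in variant 3. NMRK1 deviated by −0.07, −0.36, −0.77, 0.94 and 0.27 in the same order. Relative to its chromosome it was still 0.66 above the mean in variant 2 and 0.71 below it in variant 1, and 0.05 above it in variant 3. With chromosome medians taken out its log2 fold change was 0.12, and why the chromosome differed was not tested.

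NAPRT (ENSG00000147813, chromosome 8, 143574785 to 143578649, reverse strand), which starts the route from nicotinic acid, was the steadiest of the set. It had 31.4 and 30.7 CPM in the controls, against 28.9, 30.7 and 32.5 CPM with the variant. The coefficient of variation over the 5 libraries was 4.17%, where counting error alone gives 4.31%. The log2 fold change was −0.02 (SE 0.17, 95% interval −0.40 to 0.37; edgeR's quasi-likelihood test, adjusted p = 0.989). The direction changed with the setting, between −0.16 after the GC and length correction and 0.06 with chromosome medians taken out. Antisense transcripts of ENSG00000255050 overlap 27.8% of its exonic bases, and whether the counting used the strand is not given in the sources used here. That antisense gene itself stood at 0.874 to 2.31 CPM. Another gene on the opposite strand, ENSG00000279605, overlaps 9.48% of the exonic bases of NAPRT. The effect of either on the NAPRT count was not tested.

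NADSYN1 (ENSG00000172890, chromosome 11, 71453109 to 71524107, forward strand), the glutamine-dependent NAD synthetase that ends the same route, had 56.4 and 68.6 CPM in the control libraries. The variant libraries had 60.4, 76.8 and 71.2 CPM. The highest libraries carried the variant and the lowest was control 1, with the groups overlapping. The fitted difference was 0.15 on the log2 scale (SE 0.18; edgeR's quasi-likelihood test, adjusted p = 0.843), 0.02 without control 1 and 0.30 without control 2. It was 0.24 without variant 1, 0.07 without variant 2 and 0.06 after the GC and length correction.

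NMNAT1 (ENSG00000173614, chromosome 1, 9943428 to 9985501, forward strand), the adenylyltransferase of the nucleus, had 6.70 CPM in control 1, 9.98 CPM in control 2 and 8.50, 9.93 and 9.88 CPM in the variant libraries. Control 1 was low and control 2 was the highest of all 5. For NMNAT1 the log2 fold change was 0.18 (SE 0.26; edgeR's quasi-likelihood test, adjusted p = 0.884), −0.08 without control 1 and 0.49 without control 2. It rests on 115 to 175 counts per library.

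Neither of the kinases that make NADP passed the test. NADK (ENSG00000008130, chromosome 1, 1751232 to 1780457, reverse strand) had 163 and 136 CPM in the controls, against 153, 161 and 148 CPM with the variant. All 3 variant values lay between those of the controls. NADK had a log2 fold change of 0.05 (SE 0.15; edgeR's quasi-likelihood test, adjusted p = 0.952), and its 95% interval of −0.29 to 0.38 was the narrowest of the 9 genes. The direction was the opposite, −0.08, without control 2, and −0.08 also after the GC and length correction.

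NADK2 (ENSG00000152620, chromosome 5, 36192592 to 36242279, reverse strand), the mitochondrial NAD kinase, had 47.4 and 48.7 CPM in the controls, against 48.9, 55.1 and 49.9 CPM with the variant. The groups did not overlap, although control 2 and variant 1 were close. The log2 fold change was 0.09 (SE 0.16, 95% interval −0.26 to 0.45; edgeR's quasi-likelihood test, adjusted p = 0.898). NADK2 transcripts have 36.5% GC. In control 1 the fitted deviation for a gene of its GC content and length was 0.31, while NADK2 itself deviated there by −0.07. After the GC and length correction the log2 fold change was 0.34 (same test, adjusted p = 0.774). Without variant 2 it was 0.04, and with chromosome medians taken out it was 0.17. The level of NADK per kilobase was 2.76 to 3.39 times that of NADK2 in the 5 libraries, with the groups overlapping.

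NNT (ENSG00000112992, chromosome 5, 43602692 to 43707405, forward strand), the transhydrogenase, mirrored NAMPT in control 1. It had 59.2 CPM there and 98.4 CPM in control 2, and 95.6, 106 and 91.7 CPM in variant 1, variant 2 and variant 3. Control 1 was low by itself, and the other 4 libraries lay within 91.7 to 106 CPM. The group means were 78.8 ± 27.7 CPM (SD, n = 2) and 97.9 ± 7.59 CPM (SD, n = 3).

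The log2 fold change of NNT was 0.31 (SE 0.22, 95% interval −0.17 to 0.80; edgeR's quasi-likelihood test, adjusted p = 0.734). It was −0.01 without control 1 and 0.73 without control 2. Its transcripts have 39.5% GC. In control 1 the fitted deviation for a gene of its GC content and length was 0.16 on the log2 scale. After the GC and length correction its log2 fold change was 0.35. NNT itself deviated by −0.58 in control 1, NAMPT by 0.58, and NADK2, with 36.5% GC, by −0.07. The part of GC content in these deviations was not tested. In the other 4 libraries the deviations ran from 0.05 to 0.26 for NNT and from −0.25 to −0.03 for NAMPT.

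**Figure D2:**
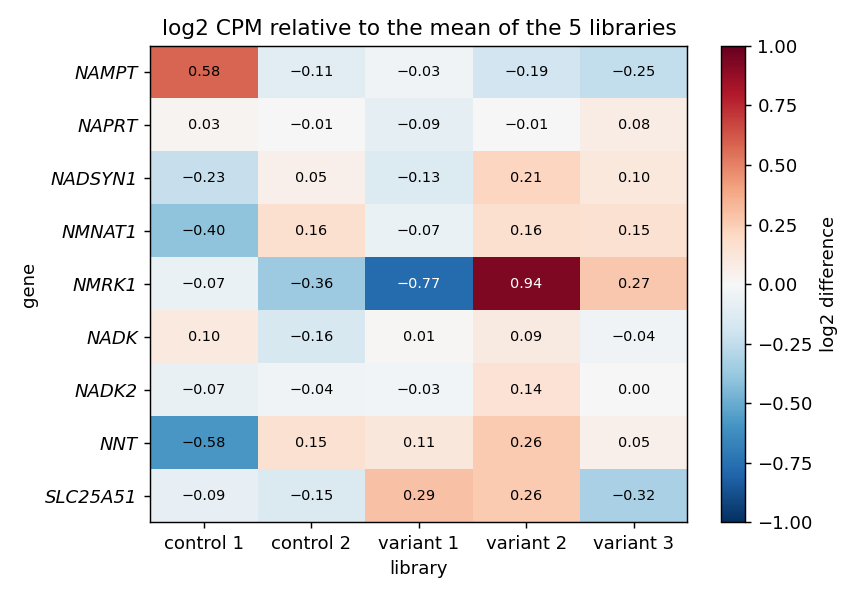
Deviation of each gene in each library from its own mean over the 5 libraries, on the log2 CPM scale, with red above and blue below the mean. Control 1 holds the extreme values of NAMPT (0.58), NNT (−0.58) and NMNAT1 (−0.40), and variant 1 and variant 2 hold those of NMRK1 (−0.77 and 0.94).

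SLC25A51 (ENSG00000122696, chromosome 9, 37879400 to 37904353, reverse strand), the mitochondrial NAD carrier, had 8.34 and 7.98 CPM in the controls, against 10.9, 10.6 and 7.06 CPM with the variant. Variant 1 and variant 2 were above both controls and variant 3 was below both. The log2 fold change was 0.22 (SE 0.27, 95% interval −0.38 to 0.83; edgeR's quasi-likelihood test, adjusted p = 0.857). It was 0.12 without variant 1, 0.14 without variant 2 and 0.40 without variant 3.

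SLC25A51 shares chromosome 9 with NMRK1 but not its pattern. Its deviations were 0.29 in variant 1, where NMRK1 had −0.77, and −0.32 in variant 3, where its chromosome stood at 0.22. With chromosome medians taken out its log2 fold change changed sign, to −0.11. It rests on 125 to 188 counts per library. Over all its transcripts 10.2% of the 50-base windows occur in SLC25A52.

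**Figure D3:**
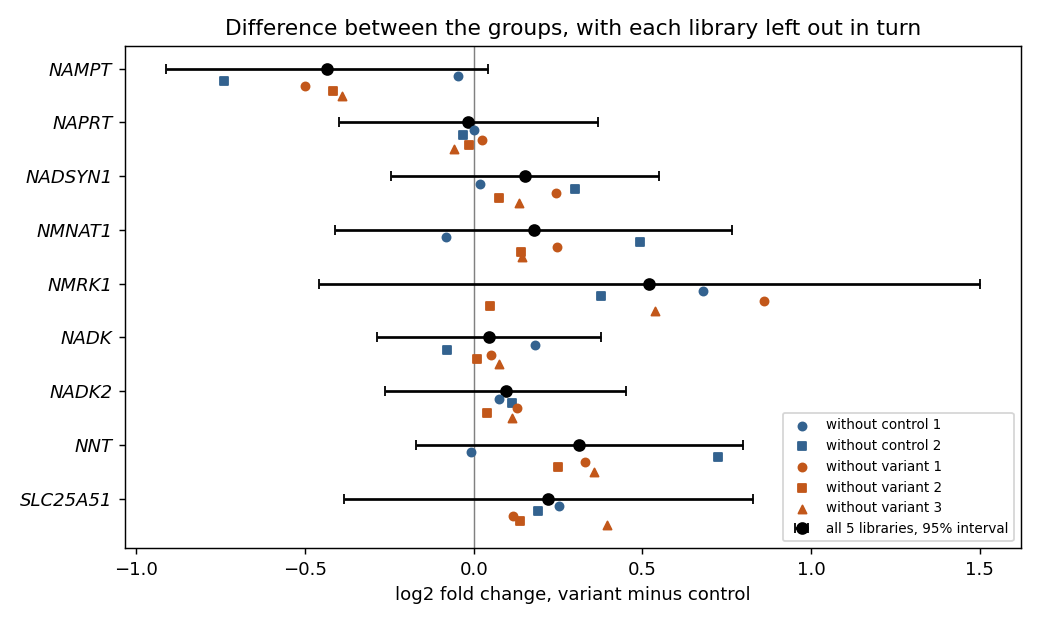
Log2 fold change of each gene, variant minus control, from edgeR with all 5 libraries (black, with its 95% interval) and with each library left out in turn (coloured). Every interval spans 0. The points without control 1 and without control 2 lie farthest apart for NAMPT and NNT, at −0.05 and −0.74 and at −0.01 and 0.73.

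The spread of each gene over the 5 libraries separated the set more clearly than the groups did. The median tested gene had a range of 0.640 on the log2 scale between its lowest and highest library. NAPRT, NADK2 and NADK were steadier, with ranges of 0.165, 0.214 and 0.262. NADSYN1, NMNAT1 and SLC25A51 had 0.443, 0.566 and 0.614. NAMPT, NNT and NMRK1 had 0.834, 0.844 and 1.71. For NAMPT and NMRK1 the gene with the most similar profile over the 5 libraries was sought among the other members and 6 wider lists, 72 genes in all, by the root-mean-square distance of log2 deviations. It was NUDT12, which hydrolyses NADH, for NAMPT (distance 0.0848), and the mitochondrial sirtuin gene SIRT4 for NMRK1 (0.414). The match of SIRT4 was loose. SIRT4 had only 0.925 to 2.88 CPM and was highest in variant 3, where NMRK1 was highest in variant 2.

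Windows of 250 bases upstream of annotated transcript starts (RefSeq, GRCh38.p14) were at hand for 8 of the 10 genes (NMNAT3 among them, but not NAPRT and NMRK1), in 14 windows. They were searched on both strands for the E-box CACGTG, the core of the NRF1 site, the GC box GGGCGG, the CCAAT box CCAAT and the TATA box TATAAA. The GC box was present in 12 of the 14 windows and the NRF1 core in 0, where 42.6% and 1.03% of 35116 windows of all genes hold them. A gene can have several windows, and each of the 8 genes had a GC box in at least 1. The windows of NMNAT3 overlap, so some of its GC boxes lie in both. The E-box was present in 4 of the 14 windows, 1 each of 4 genes, NADK, NADK2, NNT and SLC25A51, where 6.34% of all windows hold it. Stretches of 30 bases around it are shown, with the E-box in capitals, because it is the rarest among all promoters of the motifs found in the set.
NADK (chr1:1778860-1778889, reverse strand): cctgagccggccCACGTGgtccgggaggtc
NADK2 (chr5:36242398-36242427, reverse strand): taaaccaatgggCACGTGgtcggcctgcag
NNT (chr5:43603138-43603167, forward strand): cggagctgcagtCACGTGgccgcccgccgc
SLC25A51 (chr9:37904169-37904198, reverse strand): cggtgtctccctCACGTGaccccaacagcg
The E-box begins 61, 136, 30 and 59 bases upstream of the start in these windows. A gene can have starts inside its own span. By GENCODE release 29 the E-boxes of NADK, NNT and SLC25A51 lie within the gene's span, and that of NADK2 outside it. Exons of the same gene cover 226 of the 250 bases of the SLC25A51 window, 53 of that of NNT and 0 of those of NADK and NADK2. The CCAAT box was present in 4 of the 14 windows, of 3 genes, and the TATA box in 1, where 32% and 10.7% of all windows hold them. The log2 fold changes of the 4 genes with an E-box were 0.05, 0.09, 0.31 and 0.22, in the order shown, and none had an adjusted p under 0.05. A match of letters is not a site of binding, and binding was not analysed here.

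The wider pathway was read from 6 lists of genes around NAD and NADP, with 84 genes in all, of which 64 were tested. By edgeR's quasi-likelihood test 0 of the 64 had an adjusted p under 0.05 (0% of all tested genes), and 4 higher and 3 lower genes had an unadjusted p under 0.05, beside 4.11% and 3.51% of all tested genes. At 20 of the 64 the control and variant values lay apart without overlap, beside 24.8% of all tested genes. The median log2 fold change of the 64 was −0.03.

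Of the de novo route from tryptophan only 2 of 9 genes were in the table. AFMID, which hydrolyses N-formylkynurenine, had a log2 fold change of −0.09 (SE 0.18). QPRT, which turns quinolinic acid into nicotinic acid mononucleotide, had 64.3 and 84.4 CPM in the control libraries and 12.4, 39.7 and 86.3 CPM in variant 1, variant 2 and variant 3. The highest and the lowest library both carried the variant, and its log2 fold change was −0.69 (SE 0.73), −0.24 without variant 1 and −1.51 without variant 3. The list of precursor handling and repair had 6 of 12 genes tested, with a median of 0.10. Its smallest unadjusted p in edgeR's quasi-likelihood test was 0.0582, that of NT5E, the ectonucleotidase CD73, at 1.05 and 1.26 CPM in the controls against 1.68, 2.99 and 1.69 CPM with the variant. Its log2 fold change was 0.87 (SE 0.41), and 0.55 without variant 2.

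Enzymes that consume NAD, the sirtuins, ADP-ribosyl transferases and NAD glycohydrolases, had 21 of 25 genes tested and a median log2 fold change of −0.05, with 10 higher and 11 lower. SARM1, an NAD glycohydrolase known from degenerating axons, had 14.4 and 12.8 CPM in the controls and 21.4, 27.8 and 15.0 CPM in the variant libraries. The fitted difference was 0.65 on the log2 scale (SE 0.27; edgeR's quasi-likelihood test, adjusted p = 0.635). It was 0.41 without variant 2 and 0.41 after the GC and length correction. BST1, an ADP-ribosyl cyclase of the cell surface, was close to the floor of the table, with 0.291 and 0.228 CPM in the controls and 0.751, 0.918 and 0.452 CPM in the variant libraries. For BST1 the log2 fold change was 1.42 (SE 0.55; edgeR's quasi-likelihood test, adjusted p = 0.621). For both genes every variant library lay above both controls, which was a condition of naming them. In the list, 3 higher and 4 lower genes had groups that did not overlap, beside 11.8% and 13% of all tested genes. PARP1, the most abundant of the list in CPM, stood between 1341 and 1484 CPM in all 5 libraries.

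Dehydrogenases that reduce NADP had 10 of 12 genes tested and a median log2 fold change of 0.03, with 5 higher and 5 lower. That median was −0.03 without control 1 and 0.14 without control 2. MTHFD1, the trifunctional folate enzyme of the cytosol, had 138 and 154 CPM in the controls against 242, 243 and 159 CPM with the variant, and a log2 difference of 0.56 (SE 0.20; edgeR's quasi-likelihood test, adjusted p = 0.617). With chromosome medians taken out, chromosome 14 in its case, the log2 fold change was 0.25. H6PD, which forms NADPH in the endoplasmic reticulum, had 67.9 and 59.5 CPM in the controls against 89.9, 127 and 72.1 CPM with the variant, and a log2 difference of 0.59 (SE 0.23; edgeR's quasi-likelihood test, adjusted p = 0.627), which was 0.35 without variant 2 and 0.36 after the GC and length correction. In both genes variant 3 was the nearest of the variant libraries to the controls.

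Enzymes that use NADPH, with 2 NADP(H) phosphatases, had 14 of 14 genes tested and a median log2 fold change of 0.03. Their smallest unadjusted p was 0.110 in edgeR's quasi-likelihood test, that of PYCR1, the mitochondrial proline synthesis enzyme, whose log2 fold change was 0.55 (SE 0.31). It had 21.2 and 9.98 CPM in the controls and 18.7, 27.1 and 22.8 CPM in the variant libraries, with the groups overlapping. Without control 1 its log2 fold change was 1.19 and without control 2 it was 0.11.

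The shuttles that carry the electrons of NADH across the mitochondrial membrane, with lactate dehydrogenase, had 11 of 12 genes tested. By fitted value 3 stood higher and 8 lower with the variant, around a list median of −0.10 on the log2 scale. MDH1, the cytosolic malate dehydrogenase, had 259.8 and 239.5 CPM in the controls and 178, 189 and 196 CPM in the variant libraries. LDHA had 694 and 628 CPM against 501, 544 and 462 CPM, and LDHB had 162 and 140.2 CPM against 78.0, 93.1 and 127 CPM.

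In MDH1, LDHA and LDHB every variant library lay below both controls, which was a condition of naming them. In the list, 0 higher and 4 lower genes had groups that did not overlap, beside 11.8% and 13% of all tested genes. The log2 fold changes of MDH1, LDHA and LDHB were −0.41 (SE 0.13), −0.40 (SE 0.13) and −0.60 (SE 0.21), each with adjusted p = 0.617 by edgeR's quasi-likelihood test. With chromosome medians taken out the value of MDH1 was −0.25. After the GC and length correction MDH1 had −0.29, LDHA −0.29 and LDHB −0.49. The list median was −0.30 without control 1 and 0.04 without control 2.

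**Figure D4:**
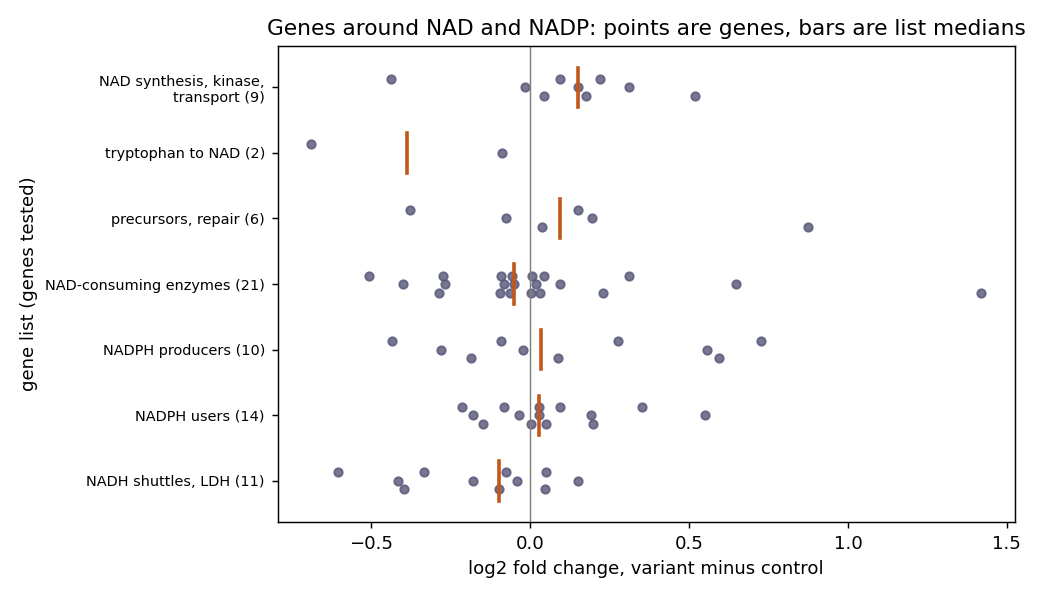
Log2 fold change, variant minus control, of every tested gene of the set and of 6 lists around it; points are genes, spread vertically for legibility, and orange bars are list medians. The median lay at 0.15 for the 9 genes of the set and between −0.10 and 0.10 for the lists with more than 2 genes.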

How the data were processed

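RNA was sequenced in 5 HEK293 libraries from strand-specific mRNA preparations, as 50-base single-end reads, per the labels' protocols. HISAT2, SAMtools, HTSeq and hg38 are named in the submitters' processing notes. The annotation, strand setting and gene filter are not given in the sources used here. The authors deposited raw counts per gene, as whole numbers, and the column names identified the libraries. Genes were named from a gene name table (16627 of 16677 identifiers) and placed with GENCODE release 29.

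Levels are TMM-normalised CPM. Groups were compared over the whole table (16310 genes after filterByExpr) with the quasi-likelihood test of edgeR 4.0.16 in R 4.3.3, robust, with genotype as the only factor and Benjamini-Hochberg adjustment over all tested genes at 0.05. SEs came from the same fit. The tests were also run on simulated counts. How often they find log2 fold changes as small as those of the members (−0.44 to 0.52) in libraries like these was not tested. The alternatives were RLE and upper-quartile scaling, no filter, at least 10 counts in every library, DESeq2 1.42.0, limma-voom (limma 3.58.1), the replicate number as a block, GC and length offsets (per library, spline of 5 degrees of freedom), both together, offsets for chromosome medians (both kinds set on genes with a mean log2 CPM above 3), and leaving out each library. Adding NAMPTP1 to NAMPT was chosen after seeing the data.

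The members, lists and alternatives were chosen with earlier results of these data known. The rule named all members and SIRT3, and of each wider list the genes past the adjusted threshold, failing that those with an unadjusted p under 0.05 and groups that do not overlap, failing that the gene with the smallest p. PARP1 and AFMID were added after their values were seen, and NUDT12 and SIRT4 came from the search for similar profiles, of which some results are not reported here.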

Additional observations from a re-analysis of the deposited data

How the results depend on the processing

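Of 151 values of the 9 genes and SIRT3 under the alternatives, 142 kept their direction and none passed the adjusted threshold. The direction changed for NAPRT with chromosome offsets (0.0579), for SLC25A51 with chromosome offsets (−0.108), and for NADK with GC and length offsets (−0.0760) and with these and the replicate block (−0.0163). Leaving out 1 library gave log2 fold changes from −0.0591 to 0.0237 for NAPRT (0.0001 without control 1, 0.0237 without variant 1), from −0.0798 (without control 2) to 0.181 for NADK, from −0.0812 (without control 1) to 0.493 for NMNAT1 and from −0.0076 (without control 1) to 0.725 for NNT. The same fits gave list medians from 0.0184 to 0.191 for the members, −0.0072 to 0.186 for precursors and repair, −0.103 to −0.0256 for NAD-consuming enzymes, −0.0259 to 0.144 for NADPH producers, −0.0725 to 0.0873 for NADPH users and −0.299 to 0.0431 for the shuttles. They gave 0 to 4 genes at an adjusted p under 0.05 (1 without control 1, 4 without variant 3), 549 (without control 1; 765 without variant 2) to 1618 (without variant 3) at an unadjusted p under 0.05, and 0 to 2 members at an unadjusted p under 0.05, which were NAMPT and NNT without control 2, and 1, NMRK1, without variant 1. Where 1 control was left, it was assumed to vary like the variant libraries. Chromosome offsets moved the median of NAD-consuming enzymes to −0.0040 and of NADPH users to 0.0776, and the latter was −0.0166 with the replicate block and GC and length offsets. At an adjusted p under 0.05, DESeq2 had 32 genes and the replicate block with GC and length offsets had 2, in place of 0. The cause was not tested. Deviations from the group means correlated with r = 0.120 between the libraries numbered 1 and −0.113 between those numbered 2. With 2 controls their deviations mirror each other, so these values cannot show whether the numbers pair libraries. Variant 3 has no partner. The replicate block alone gave 1557 genes at an unadjusted p under 0.05 and 0 at an adjusted one, with log2 fold changes of −0.35 for NAMPT, 0.40 for NNT, 0.33 for NMRK1, 0.40 for SLC25A51, −0.50 for SIRT3 and −1.71 for QPRT. BST1 had no value in 3 alternatives whose filters removed it. SLC25A51, NMNAT1 and NMRK1, with the lowest counts, had the widest intervals.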
